A study of Mus musculus with 6 samples.

Results

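The 10 genes examined here encode TREM receptors (Trem2, Trem1, Trem3, Treml2 and Treml4), the membrane adaptors Tyrobp (DAP12) and Hcst (DAP10), the kinase Syk, and the effectors Plcg2 and Vav1. They were taken by name from 56092 gene symbols in the count table, and all 10 were found. RAW264.7 cells, a mouse macrophage line, stably carried a control construct (shNC) or an shRNA against Trem2 (shTrem2), with 3 libraries in each group. The labels call shNC an empty vector control, whereas the methods list a hairpin sequence for it. Both groups had been transduced with a lentiviral vector that also carries GFP and had been selected with puromycin. IL-4 was given to both (20 ng/ml, 24 hours), followed by debris of freeze-thawed mouse tubular epithelial cells (TCMK-1) over another 24 hours, so untreated cells are not part of the comparison. The methods describe more than one shRNA against Trem2, and which of them the sequenced line carried is not given in the sources used here. Nothing states that the 3 libraries of a group came from separate cultures, so p-values measure the spread between these libraries, which may be technical.

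TREM1, TREM2 and TREM3 are single-pass proteins of myeloid cells with short tails that carry no signalling motif of their own. TREM2 binds lipids, lipoproteins and cell debris, and a lysine within its membrane segment pairs with an aspartate of DAP12. Phosphorylation of the DAP12 tail by Src family kinases recruits SYK, which acts on phospholipase C gamma 2, VAV exchange factors and PI3K, while DAP10 carries a different tail that engages PI3K directly. In macrophages and microglia this route is linked to phagocytosis and survival.

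The libraries held between 15876119 and 19655165 counts assigned to named genes, which sets the floor used here, 3 counts in a library, at 0.155 to 0.186 CPM (counts scaled to the TMM-normalised size of the library). The floor covers counting error only. Of 8 macrophage markers, 7 were tested and all 7 differed between the groups at a threshold that 57.4% of all genes tested passed (FDR under 0.05), among them Lyz2 (1.39 on the log2 scale) and Csf1r (0.76), which were higher in shTrem2, and Itgam (-0.78), which was lower, and Mertk had 3 counts or fewer in every library. The labels and methods describe IL-4-polarized cells, but Arg1, the defining gene of the intended Arg1+ state, had 3 counts or fewer in every library, Chil3, Retnla and Ccl24 had 0 in every library, and Ccl17 had at most 1. Mrc1 had 5, 14 and 6 counts in shNC and 62, 71 and 56 in shTrem2. Of 14 tubular epithelial markers, 8 were at 0 in every library and 11 had 3 counts or fewer, and their summed level was 0.880 to 1.43 CPM in shNC and 2.21 to 2.82 CPM in shTrem2. The part of that difference in the results below was not tested. In bulk RNA, fewer cells of a type and less RNA per cell cannot be told apart.

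The coding sequences of the charged membrane stretches are shown first, since the pairing of receptors with adaptors described above rests on them. They were read from the annotated transcripts (GENCODE M21, genome build GRCm38), as the most hydrophobic stretch of 21 codons after the first 30 codons of each coding sequence. Capitals mark the codon of the charged residue, AAG for lysine in the receptors and GAC or GAT for aspartate in the adaptors.
Trem2-201, chr17:48351777-48351839, + strand, codons 172 to 192: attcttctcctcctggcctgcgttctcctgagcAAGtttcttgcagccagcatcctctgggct
Trem3-201, chr17:48257884-48257946, + strand, codons 138 to 158: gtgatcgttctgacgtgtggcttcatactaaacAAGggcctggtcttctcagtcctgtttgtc
Tyrobp-201, chr7:30414542-30414604, + strand, codons 43 to 63: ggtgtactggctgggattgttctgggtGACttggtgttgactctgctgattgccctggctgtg
Hcst-201, chr7:30418119-30418181, - strand, codons 36 to 56: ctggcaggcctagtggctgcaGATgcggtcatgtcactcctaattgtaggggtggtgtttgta

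The corresponding stretches of Trem1 and Treml4 also hold 1 lysine codon, and that of Treml2 holds 0 lysine and 0 arginine codons. The adaptors also differ in their tails. In Tyrobp the capitals mark the paired tyrosine and leucine codons of the motif that recruits SYK, found at codons 92 to 106 of 114. In Hcst they mark the tyrosine and methionine codons of the motif that engages PI3K, found at codons 72 to 75 of 79.
Tyrobp-201 tail, chr7:30415661-30417391 across an intron, + strand: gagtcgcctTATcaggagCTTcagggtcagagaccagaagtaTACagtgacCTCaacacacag
Hcst-201 tail, chr7:30417812-30417841, - strand: ggtagagtcTACatcaacATGcctggcaga

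Of the 10 genes, 8 had enough counts to be tested and Trem1 and Treml4 did not. At a false discovery rate (FDR, Benjamini-Hochberg adjusted p of edgeR's quasi-likelihood test) under 0.05, 6 of the 8 differed, with 4 higher and 2 lower in shTrem2. Among all 13528 genes tested, 57.4% passed the same threshold (28.8% higher and 28.6% lower), so the share of 75% among these genes was read against a background of more than every second gene. With a fold change over 1.5 added, which defines a DEG here, 2 of 8 passed, Trem2 lower and Treml2 higher, against 21.8% of all genes (9.46% higher, 12.4% lower). CPM values did not overlap between groups in 7 of 8, against 63.8% of all genes. The median log2 fold change of the 8 was 0.08 and the median of its absolute size 0.45, against 0.00 and 0.31 over all genes tested. Trem2, whose lower level was the aim of the shRNA, is included in all of these counts and medians. Its part in them is no result separate from the knockdown. The plot of CPM by library shows each value.

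**Figure D1:**
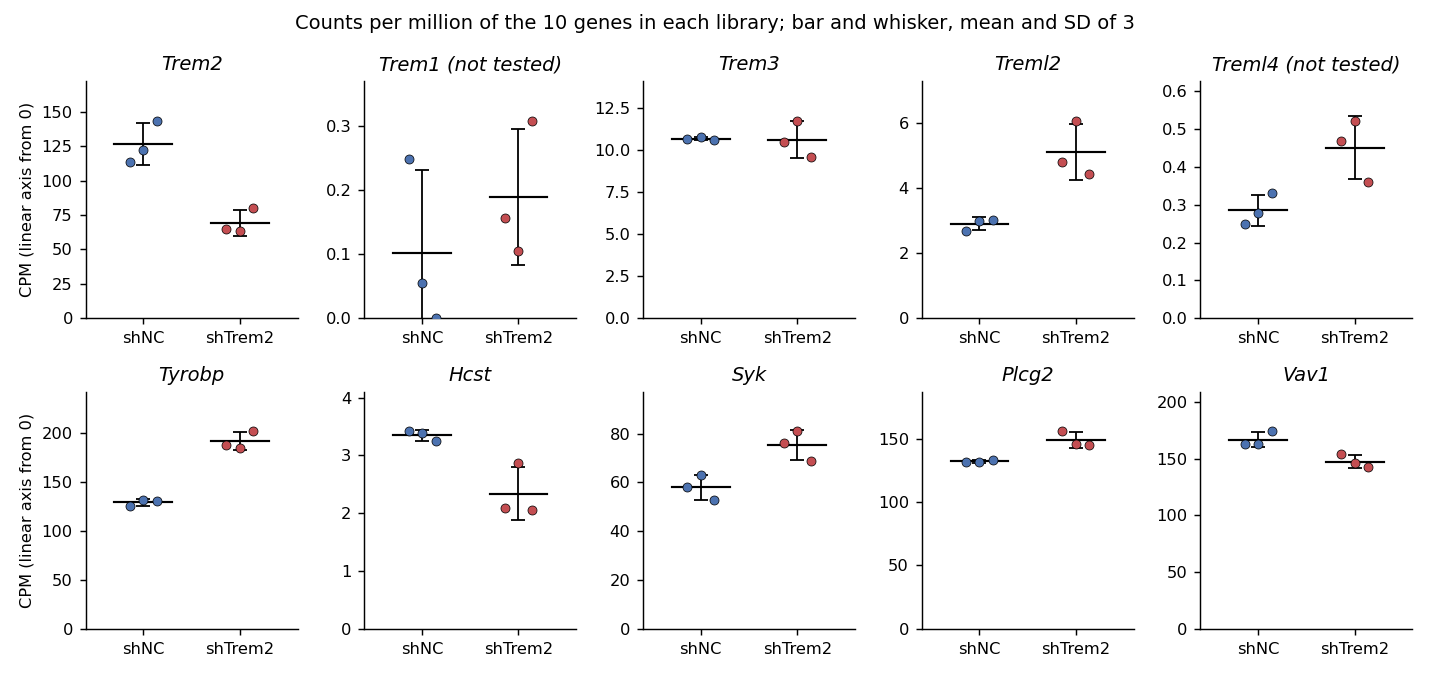
CPM of each of the 10 genes (vertical axes, linear and from 0, 1 scale per gene) in the 3 shNC and 3 shTrem2 libraries; points are libraries, the bar is the mean and the whisker the SD. Trem2 lies between 114 and 144 in shNC and between 63.2 and 80.2 in shTrem2, whereas Tyrobp, Syk, Plcg2 and Treml2 lie higher in all 3 shTrem2 libraries.

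The targeted gene, Trem2 (ENSMUSG00000023992, chr17:48346401-48354147, + strand), was lower in all 3 knockdown libraries. Its level was 114, 122 and 144 CPM in shNC and 64.7, 63.2 and 80.2 CPM in shTrem2. The groups did not overlap, and the log2 fold change was -0.87 (SE 0.094, adjusted p = 3.39e-06), or 1.83-fold lower. The authors' FPKM, which also corrects for the length of the transcripts present, was 152, 174 and 208 in shNC and 40.05, 38.6 and 46.4 in shTrem2, a 4.27-fold lower mean. With an offset for effective length, the edgeR log2 fold change was -2.06. Thus the call stood in either unit, but the size of the knockdown did not.

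The 2 units weight 1 transcript differently. Trem2-203, annotated as a retained-intron transcript of 4784 nt, keeps the 1861 nt of intron 1 and runs 1874 nt past the 3′ end of Trem2-201. The boundary at the end of exon 1 shows what separates it from the spliced mRNA, with the bases that follow exon 1 in capitals.
Trem2-201, chr17:48346572-48348480 across intron 1: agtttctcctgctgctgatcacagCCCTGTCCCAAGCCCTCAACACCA
Trem2-203, chr17:48346572-48346619, read into intron 1: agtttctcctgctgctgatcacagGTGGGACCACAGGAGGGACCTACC

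The estimated level of Trem2-203 was 25.0, 28.8 and 32.3 CPM in shNC and 43.8, 44.8 and 55.3 CPM in shTrem2, higher in every knockdown library. The protein-coding Trem2-201 moved the other way, from 67.9 ± 8.38 CPM (SD, n = 3) to 15.4 ± 3.81 CPM, and Trem2-202 from 18.7 ± 0.278 to 5.01 ± 0.452 CPM. The short processed transcript Trem2-204 averaged 11.3 ± 3.86 CPM in the controls and 0.966 ± 0.480 CPM after knockdown. None of these 4 rows overlapped between groups (exact permutation test, two-sided p = 0.1 for each, the smallest that 3 against 3 allows).
Trem2-203 thus held 22.6 ± 0.850% of the gene's counts in shNC and 69.2 ± 1.63% in shTrem2, but 3.63 ± 0.150% and 25.2 ± 1.18% of its FPKM. Over the protein-coding rows alone the edgeR log2 fold change of Trem2 was -2.08 (adjusted p = 3.37e-09). The split between transcripts is the authors' estimate from short reads, and the rows were matched to transcripts by length.

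**Figure D2:**
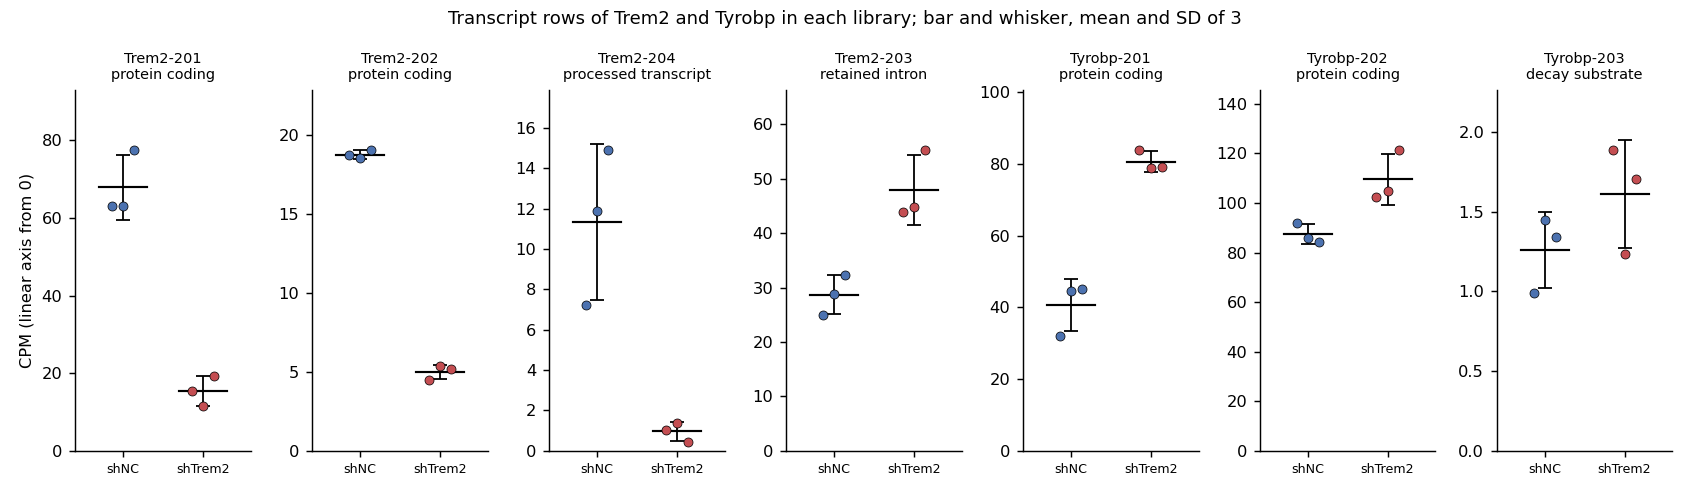
Estimated CPM (vertical axes, linear and from 0, 1 scale per transcript) of the Trem2 and Tyrobp transcripts in each library, with mean and SD of 3. Trem2-201, Trem2-202 and Trem2-204 lie lower in shTrem2 while Trem2-203 lies higher, and Tyrobp-201 lies higher by a larger factor than Tyrobp-202.

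The other TREM receptors did not move as 1 group. The 5 receptor genes lie in tandem on chromosome 17 within 121380 nt, all on the + strand, in the order Trem1, Trem3, Treml4, Treml2 and Trem2. Trem3 (chr17:48247777-48258841), a mouse receptor with the same membrane lysine, was at 10.7, 10.8 and 10.6 CPM in shNC and 10.5, 11.8 and 9.58 CPM in shTrem2. The shNC values lay inside the range of the shTrem2 values. The log2 fold change was -0.01 with a 95% interval from -0.26 to 0.24 (adjusted p = 0.943), so a change beyond that interval was not seen and a smaller one was not resolved.

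Treml2 (chr17:48299498-48312533), whose membrane stretch lacks the lysine codon, was higher after knockdown. It had 43, 54 and 55 counts in shNC and 92, 116 and 86 in shTrem2, or 2.90 ± 0.196 and 5.10 ± 0.855 CPM (SD, n = 3). All 3 knockdown libraries lay above all 3 controls, and the log2 fold change was 0.81 (SE 0.191, adjusted p = 0.00243). On log2(FPKM + 1) it was 0.38, since its FPKM of 1.05 and 1.67 are close to the pseudocount.

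Trem1, an amplifier of inflammatory responses in neutrophils and monocytes, was not detected above the floor in most libraries. It had 4, 1 and 0 counts in shNC and 3, 2 and 6 in shTrem2, so 4 of 6 libraries were at 3 counts or fewer, and no fold is given. Treml4 had 4, 5 and 6 counts in shNC and 9, 10 and 7 in shTrem2. Its CPM values did not overlap (0.249 to 0.330 against 0.361 to 0.522), but its FPKM values did (0.26 to 0.66 against 0.33 to 0.60), and it was too low to be tested. Treml1, which lies next to Trem2 and was named here after its values were seen, was lower at 3.01 ± 0.174 against 1.91 ± 0.266 CPM (log2 fold change -0.65, SE 0.225, adjusted p = 0.0232).

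Tyrobp (chr7:30413760-30417585, + strand), the adaptor through which TREM2, TREM1 and TREM3 signal, was higher in shTrem2. Its level was 125, 132 and 131 CPM in shNC and 188, 185 and 202 CPM in shTrem2. The gap between the groups was wider than the range within either, and the log2 fold change was 0.57 (SE 0.049, adjusted p = 4.20e-07), or 1.48-fold. It therefore passed the FDR and missed the fold of 1.5 by a small margin. Without shTrem2 replicate 2 its log2 fold change was 0.60, past that fold, and Hcst was called as well, which brought the DEGs to 4 of 8.

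Tyrobp had 2 main transcripts with the same introns, of which Tyrobp-202 starts 28 nt upstream and ends 5 nt downstream of Tyrobp-201, and its annotated coding part contains that of Tyrobp-201 whole. Tyrobp-201 was at 32.1, 44.6 and 45.1 CPM in shNC and 83.9, 78.7 and 79.0 CPM in shTrem2. Tyrobp-202 averaged 87.4 ± 4.15 and 110 ± 10.3 CPM, and Tyrobp-203, an annotated target of nonsense-mediated decay, 1.26 ± 0.239 and 1.61 ± 0.338 CPM. The share of Tyrobp-201 in the gene's FPKM was thus 28.2 to 37.5% in shNC and 42.3 to 47.7% in shTrem2, without overlap (exact permutation test, two-sided p = 0.1, the smallest possible). Transcripts this similar share nearly all reads, so their split is uncertain, whereas the sum over the gene does not depend on it.

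Hcst (chr7:30417712-30419854, - strand), the PI3K-binding adaptor, lies tail to tail with Tyrobp at a distance of 126 nt and lay on the other side of 0. It had 55, 61 and 59 counts in shNC and 40, 55 and 40 in shTrem2, or 3.42, 3.38 and 3.24 CPM and 2.09, 2.87 and 2.06 CPM. All 3 knockdown values lay below the controls, with replicate 2 nearest to them. The log2 fold change was -0.52 (95% interval -0.99 to -0.04, adjusted p = 0.0588), which missed the threshold. It passed in 6 of 17 alternatives, among them without shTrem2 replicate 2 (adjusted p = 0.0287), with limma-voom on counts (0.0471) and with limma on log2(FPKM + 1) (0.00952), and did not pass in edgeR with an offset for effective length (0.0802).

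Syk (chr13:52583173-52648792, + strand), the kinase recruited by the DAP12 tail, was higher in shTrem2. Its level was 58.2, 62.9 and 52.8 CPM in shNC and 76.3, 80.9 and 68.8 CPM in shTrem2. The groups did not overlap, and the log2 fold change was 0.38 (SE 0.075, adjusted p = 6.71e-04), or 1.30-fold. Its main protein-coding transcripts, Syk-201 and Syk-203, overlapped between groups when taken 1 by 1, at 36.3 ± 1.78 against 46.4 ± 11.4 CPM and 19.2 ± 2.78 against 26.2 ± 11.4 CPM.

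The effectors downstream of SYK showed small differences of opposite sign. Plcg2 (chr8:117498291-117635142, + strand), the phospholipase that releases calcium and diacylglycerol signals, was at 132, 131 and 133 CPM in shNC and 156, 146 and 145 CPM in shTrem2. All knockdown libraries were higher, by 0.17 on the log2 scale (SE 0.047, adjusted p = 0.00591), or 1.13-fold. On log2(FPKM + 1) the difference was 0.14 and was not called (adjusted p = 0.0579).

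Vav1 (chr17:57279100-57328031, + strand), the haematopoietic exchange factor for RAC, was at 163, 163 and 174 CPM in shNC and 154, 146 and 143 CPM in shTrem2. All knockdown libraries were lower, by 1.13-fold (log2 fold change -0.18, SE 0.049, adjusted p = 0.00695). Vav1-201 accounted for most of it, at 153 ± 12.0 and 138 ± 3.96 CPM. Vav1-203, a protein-coding transcript of 26 exons where Vav1-201 has 27, was estimated at 0 in all 3 shNC libraries and at 35.3, 28.5 and 43.0 counts in shTrem2, or 1.35 ± 0.285% of the gene's FPKM there. The plot of log2 differences sets the 8 tested genes side by side in both units.

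**Figure D3:**
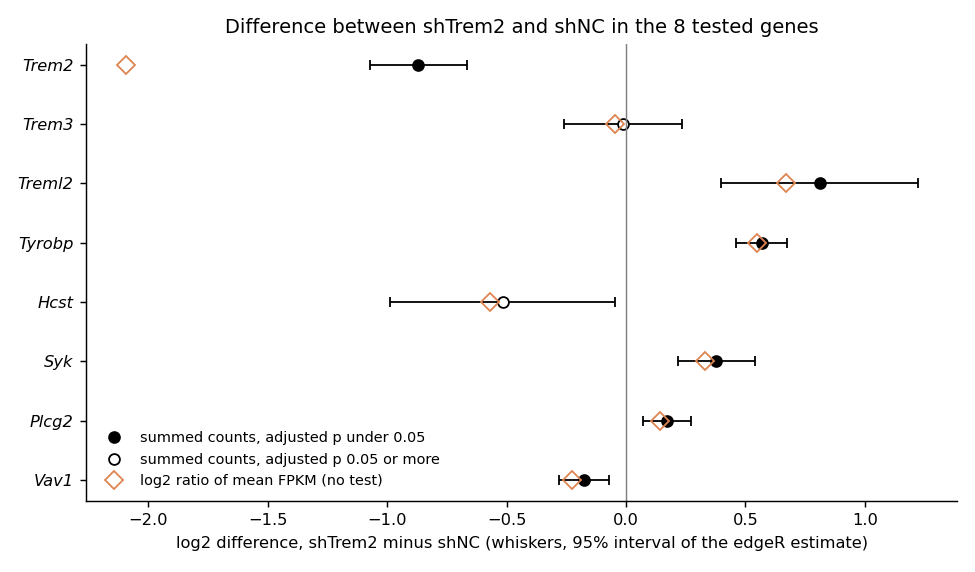
Log2 difference between shTrem2 and shNC (horizontal axis, positive where shTrem2 is higher) for the 8 tested genes. Circles are edgeR estimates on summed counts with 95% intervals, filled where the adjusted p is under 0.05, and diamonds are log2 ratios of mean FPKM. Both units lie close together for 7 genes, while Trem2 is at -0.87 by counts and -2.09 by FPKM.

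Levels can be compared between genes only per length, so FPKM is used here. In shNC, Tyrobp was at 500 ± 12.7 FPKM, Trem2 at 178 ± 28.5, Vav1 at 65.0 ± 1.70, Plcg2 at 33.2 ± 0.111, Hcst at 28.9 ± 0.699, Trem3 at 16.02 ± 0.200 and Syk at 12.6 ± 1.45 FPKM (SD, n = 3). No neighbours in that order overlapped. In shTrem2, Tyrobp was at 731 ± 51.7 and Vav1 at 55.6 ± 1.90, ahead of Trem2 at 41.7 ± 4.14 FPKM, and Plcg2 followed at 36.6 ± 1.35. Hcst (19.5 ± 3.94), Syk (15.8 ± 1.36) and Trem3 (15.5 ± 1.52 FPKM) came next, and neither Hcst and Syk nor Syk and Trem3 were separated by their ranges. Treml2, Treml4 and Trem1 stood last in both groups.

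By FPKM, Tyrobp RNA exceeded Trem2 RNA in both groups, and by more after knockdown, while Hcst RNA lay below Trem2 RNA in both. The ratio of Tyrobp to Trem2 FPKM was 3.21, 2.94 and 2.41 in shNC and 17.5, 18.1 and 17.0 in shTrem2. The mean log2 ratio was 2.63 higher in shTrem2, or 6.20-fold, and the groups were fully separated (exact permutation test, two-sided p = 0.1, the smallest possible). The denominator is the gene targeted by the shRNA, so this ratio and its test are no result separate from the knockdown. The log2 ratio of mean FPKM, shTrem2 to shNC, was -2.09 for Trem2 and 0.55 for Tyrobp. By CPM, which counts the long Trem2-203 in full, the ratio went from 1.03 ± 0.105 to 2.79 ± 0.229. Over the 5 receptors, the targeted gene included, summed FPKM was 195 ± 28.5 in shNC and 59.4 ± 2.77 in shTrem2. Trem2 made up 90.9 ± 1.32% of that sum in shNC and 70.0 ± 3.95% in shTrem2, and Trem3 8.32 ± 1.27% and 26.2 ± 3.40%. The share of Trem3 was larger within a smaller sum, while its own level overlapped between the groups.
The ratio of Tyrobp to Hcst FPKM was 17.3 ± 0.791 in shNC and 38.6 ± 8.10 in shTrem2. The ratio of Tyrobp to Syk was 40.0 ± 4.37 and 46.6 ± 7.55, with overlapping groups (exact permutation test, two-sided p = 0.3). RNA ratios say nothing of the amounts of protein at the membrane.

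**Figure D4:**
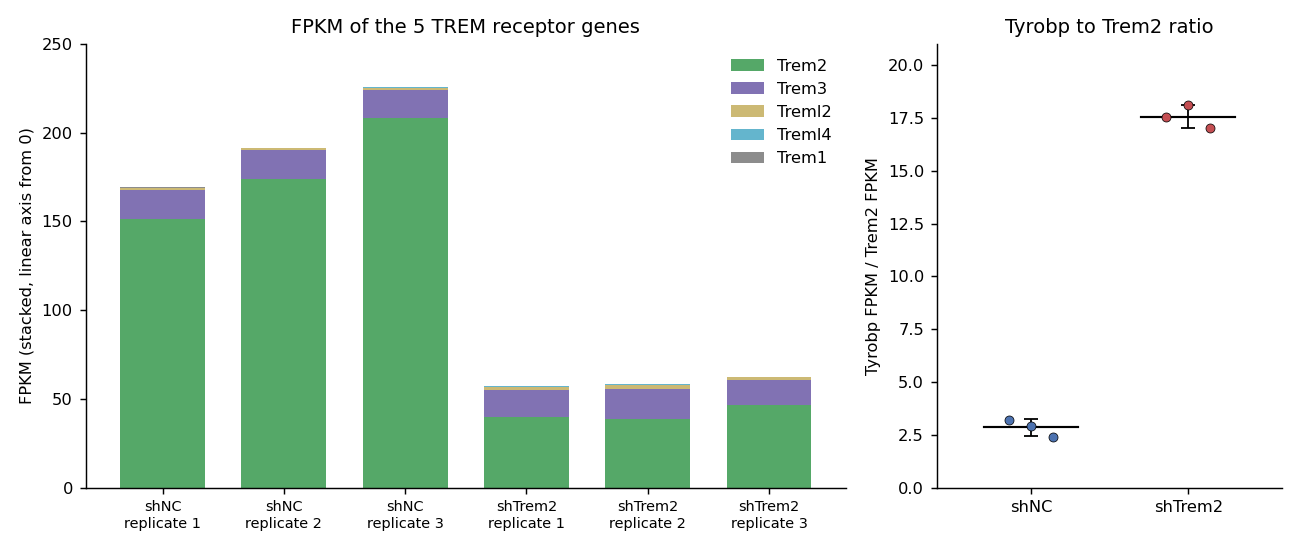
Left, FPKM of the 5 TREM receptor genes stacked for each library (vertical axis, linear and from 0); right, the ratio of Tyrobp to Trem2 FPKM in each library with mean and SD of 3. The stacks sum to 195 FPKM on average in shNC and 59.4 in shTrem2, and the ratio is 2.85 and 17.6.

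The surrounding pathway was described with 73 further genes in 6 lists, of which 60 were tested. Of these, 40 passed the FDR threshold (66.7%, against 57.4% of all genes), 19 higher and 21 lower in shTrem2, and 7 were DEGs (11.7%, against 21.8%), 3 higher and 4 lower. Their median log2 fold change was -0.06. The lists thus held both directions in similar numbers. By list, the share called was 60 to 100%, in lists of 3 to 24 tested genes, against the same 57.4%.

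Among ligands, 2 rose and 2 fell of 5 tested. Apoe, a lipoprotein ligand of TREM2, was lower at 5.65 ± 0.929 against 8.35 ± 0.363 CPM (log2 fold change -0.56, SE 0.151, adjusted p = 0.00568), and Hmgb1, a nuclear protein released by dying cells, was higher at 389 ± 35.5 against 199 ± 14.8 CPM (0.97, SE 0.068, adjusted p = 5.59e-08). Both sets of values were without overlap. Plxna1, the plexin that partners TREM2 and DAP12, fell by 1.12 on the log2 scale (adjusted p = 1.01e-06), with 38.2 to 53.5 CPM in shNC and 20.1 to 22.3 CPM in shTrem2. By FPKM its values overlapped, at 5.71 to 8.36 in shNC and 3.78 to 6.03 in shTrem2. Sema6d, a semaphorin bound by that plexin, was also lower, from 2.92 ± 0.609 to 1.18 ± 0.559 CPM (adjusted p = 0.00346). The shedding proteases Adam10 (0.25) and Adam17 (0.22) were slightly higher on the log2 scale.

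Of 13 other receptors and adaptors of the DAP12, DAP10 and FcR gamma type, 4 were tested and 3 of these 4 were higher. Among all genes tested, 57.4% passed the FDR threshold and 28.8% were higher. Cd300ld, which is among the 3, differed by only 0.17 on the log2 scale (adjusted p = 0.0258), and its CPM values overlapped between groups. The 9 not tested had at most 6 counts in a library, and 3 of them were at 0 in every library. Clec5a, a DAP12-coupled lectin receptor, was at 85.7, 92.3 and 111 CPM in shNC and 194, 199 and 207 CPM in shTrem2. The groups were far apart, and the log2 fold change was 1.06 (SE 0.075, adjusted p = 6.24e-08). By FPKM, Clec5a was at 66.3 ± 9.57 in shNC and 139 ± 10.7 in shTrem2, where it stood above Trem2. Fcer1g, the FcR gamma adaptor with the same kind of tail as DAP12, was higher by 0.32 (adjusted p = 2.64e-05).

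Among kinases and scaffold adaptors, 4 rose and 5 fell of 14 tested. The kinases Lyn (0.31) and Btk (0.39) were higher on the log2 scale, while the kinase Fyn (-0.22) was lower. Lcp2 (SLP-76), a scaffold for phospholipase C gamma and VAV, was lower at -0.45, while the adaptor Sh3bp2 (0.17) was higher. The DEGs were Src, higher at 3.85 ± 0.289 against 1.39 ± 0.207 CPM, and Lat, lower at 0.417 ± 0.262 against 1.05 ± 0.189 CPM, both at low level. In the branch of PI3K, phospholipases, exchange factors and CARD9, 5 rose and 10 fell of 24 tested. Vav2 was the DEG (log2 fold change -0.62, SE 0.094, adjusted p = 7.94e-05), while Pik3cg, the gamma catalytic subunit of PI3K, was higher by 0.54 and missed the fold threshold at 1.46-fold.
Of 10 inhibitors, 3 rose and 3 fell and none was a DEG. The lipid phosphatase Inpp5d (SHIP-1) was higher (0.27 on the log2 scale), whereas the tyrosine phosphatase Ptpn6 (SHP-1) (-0.44, adjusted p = 1.10e-06) and the docking protein Dok1 (-0.46) were lower.

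**Figure D5:**
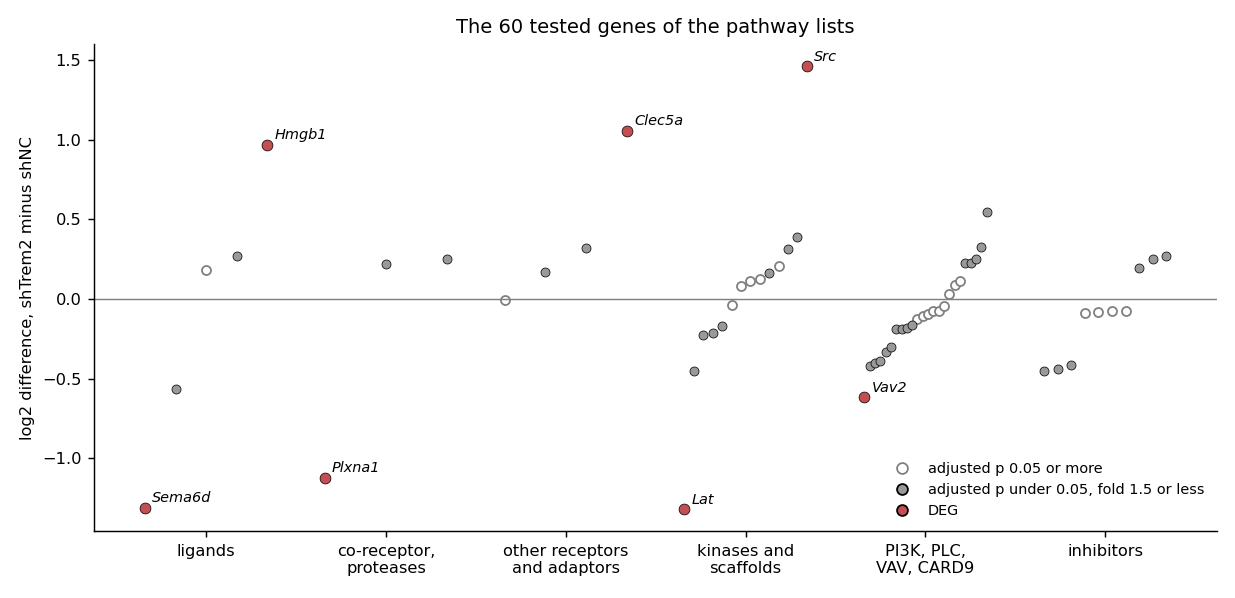
Log2 difference between shTrem2 and shNC (vertical axis) for the 60 tested genes of the 6 pathway lists (horizontal axis), ordered by value within each list. Filled points have an adjusted p under 0.05, red points are the 7 DEGs, and every list but the other receptors and adaptors has called genes on both sides of 0.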

How the data were processed

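RNA-seq libraries (stranded, poly(A)-selected, paired-end), 3 shNC and 3 shTrem2, were grouped by the shRNA in their labels. According to the methods and the processing notes, the authors used fastp, HISAT2, StringTie and build GRCm39; the counting tool and its strand setting are not given in the sources used here. The authors deposited estimated counts per transcript row, not normalised, of which 79.3% of nonzero values were not whole, and FPKM per gene; their 2 columns of group means were not used. Counts were summed per symbol and rounded. Rows without a symbol held 0.908 to 1.12% of counts and were left out. Named counts ranged from 15876119 to 18088388 in shNC and from 19358125 to 19655165 in shTrem2.

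Groups were compared with edgeR 4.0.16 (TMM, filterByExpr, glmQLFit, glmQLFTest; R 4.3.3) over 13528 genes, without covariates, after a test on simulated data. CPM uses TMM library sizes. DEGs had an FDR under 0.05 and a fold change over 1.5. Alternatives used DESeq2 1.42.0, limma 3.58.1 (voom, or trend on log2 FPKM with a pseudocount of 1 or 0.1), other normalisations and filters, a length offset, a replicate block and each library left out. Transcript rows were assigned by rebuilding each gene's FPKM from GENCODE M21 lengths, with an error under 0.5% and any other order at least 10 times worse. This succeeded for Trem2, Trem3, Tyrobp, Syk, Plcg2 and Vav1. The files hold no coordinates, so positions are those of GRCm38.

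The members and lists were chosen with earlier results of these data known. The text names all members, the genes Apoe, Fcer1g and Ptpn6, and per list up to 3 DEGs in each direction. The mean log2 CPM of these DEGs reached 3 and their groups did not overlap in CPM. Src, Lat, Sema6d, Treml1, Cd300ld, Lyn, Btk, Fyn, Lcp2, Sh3bp2, Pik3cg, Inpp5d, Dok1, Adam10 and Adam17 were named after their values were seen. One further gene of this rule is not reported here.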

Additional observations from a re-analysis of the deposited data

How the results depend on the processing

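Trem2, Treml2, Tyrobp, Syk and Vav1 kept their direction and their call under all alternatives run, and 6 or 7 of the 8 tested genes passed the FDR throughout. Trem2 ranged from -2.08 (protein-coding rows, or FPKM) to -0.77 (without shNC replicate 3). The number of DEGs, 2 as reported, was 1 with log2(FPKM + 1) and 0 with a fold change over 2 (by construction), and 2 to 4 with 1 library left out. Hcst passed in 6 of 17 alternatives, its adjusted p ranging from 0.00915 to 0.169, and Plcg2 missed the threshold on both FPKM scales (0.0579 and 0.0580). Trem3 had an adjusted p of 0.566 or more throughout and changed sign without shTrem2 replicate 1 (0.00015) and without shTrem2 replicate 3 (0.049), its values ranging from -0.089 to 0.049 with 1 library left out. The cause of these changes was not tested. The number of pathway genes called ranged from 33 to 42. With CPM per kb of the longest annotated transcript in place of FPKM, 5 of 10 genes kept their rank in shNC and 5 in shTrem2. The log2 difference of the Tyrobp to Trem2 ratio was 2.63, from 2.52 to 2.72 with 1 library left out and 1.44 by CPM. Trem1, with at most 6 counts in a library, and Treml4, with at most 10, were too low for the test at these depths.

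Samples that share a replicate number had deviations that correlated at 0.04, 0.04 and 0.02, under the 0.1 needed to treat them as pairs, although each correlated best with its own number. With the replicate block, Trem2 was at -0.87 (adjusted p = 3.99e-08), 6 of the 8 genes passed the FDR, 2 were DEGs, and 42 pathway genes passed, so no call changed for a member, and Hcst stayed above the threshold (adjusted p = 0.0778).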
